A study of Canis lupus familiaris with 36 samples.

Results

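The step from low to high histologic grade that B and T cell lymphomas of dogs have in common was described over 32 dogs (33 arrays) of the 35 dogs (36 arrays) in the series. Dogs entered by their labelled disease state: 10 with DLBCL (diffuse large B-cell lymphoma), 5 with MZL (marginal zone lymphoma), 4 with LBT, a T lymphoma whose abbreviation the labels do not spell out, 4 with PTCL (peripheral T-cell lymphoma) and 9 with TZL (T-zone lymphoma). The B step is DLBCL minus MZL, the T step is the mean of LBT and PTCL minus TZL, and the shared step is the mean of both, all as differences of log2 intensity. MZL and TZL are labelled low grade, and DLBCL, LBT and PTCL high grade, except for 1 of the PTCL dogs, which is labelled intermediate.

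Each tumour was a primary sample that was dispersed mechanically and filtered before its RNA was hybridised to an Affymetrix canine array. No dog carries a genotype or treatment label. Golden Retrievers made up 6 of the 10 DLBCL dogs, 4 of 5 MZL, 3 of 4 LBT, 1 of 4 PTCL and 8 of 9 TZL. The other dogs were Rottweilers, Labradors, Boxers, Mastiffs and a Bichon Frise. Females were 6 of the 10 DLBCL dogs, 4 of 5 MZL, 3 of 4 LBT, 2 of 4 PTCL and 3 of 9 TZL. Median age at diagnosis was 8.5 years in DLBCL, 6 in MZL, 5.5 in LBT, 8.5 in PTCL and 10 in TZL. Apart from the DLBCL case with a pair of arrays, which were averaged, each dog is 1 tumour and 1 replicate. These are bulk samples, in which fewer cells of a type and less RNA per cell cannot be told apart.

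Lymphoma grade in pathology rests largely on how many cells are dividing and on the size of their nuclei. A dividing lymphocyte copies its DNA in S phase and then builds a spindle, condenses its chromosomes, attaches them at kinetochores and splits, and many genes for these tasks are transcribed together late in the cycle under the factors FOXM1 and B-MYB. Resting lymphocytes instead express genes that restrain the cycle, carry naive and memory cell receptors and, in B cells and canine T cells, MHC class II.

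The defining markers followed the labels. Over 9 measured T cell markers the mean log2 intensity had a median of 10.9 in LBT, 10.6 in PTCL and 10.7 in TZL, against 6.42 in DLBCL and 7.28 in MZL. Over 9 measured B cell markers the medians were 7.80 in DLBCL and 8.47 in MZL, against 3.34, 5.69 and 5.88 in LBT, PTCL and TZL. The arrays' median intensity, on the linear scale, ran from 5.57 to 6.13, and a log2 intensity of 4 was reached by 32.2 to 35.5% of the probe sets on an array. For 6 arrays the actin 3' control read 14.0 to 14.4 against 10.8 to 12.4 elsewhere (DLBCL 4 and 9, PTCL 3, TZL 1, 2 and 7), and in 2 dogs (MZL 2 and PTCL 3) the level of a sex-linked probe set was that of the other sex.

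The 3' minus 5' differences of control probe sets, a gauge of RNA integrity and not a measure of it, moved with the B step. The actin 3' minus 5' difference averaged 1.37 ± 1.5 (SD, n = 10) in DLBCL and -0.485 ± 0.400 (n = 5) in MZL, a gap of 1.85 (exact permutation test, two-sided, p = 0.002, adjusted p = 0.00799 over 4 tests). The GAPDH difference was 0.483 larger in DLBCL (exact permutation test, adjusted p = 0.0306). The controls did not rank the dogs alike. DLBCL 4 and 9 had the largest actin differences of DLBCL (4.50 and 3.47) and its smallest GAPDH differences (2.90 and 3.15). In the T step the gaps were -0.682 and 0.0527 (exact permutation tests, adjusted p = 0.779 for both). Without the 6 arrays that stood apart, 3 of them TZL, the actin gap of the T step was 0.805, of the opposite sign (exact permutation test, p = 0.0804, adjusted p = 0.107), and that of the B step was 1.2 (exact permutation test, adjusted p = 0.0155). Fits with both control differences as covariates were run, and values from them stand beside most of the gene lists below. What part RNA integrity has in the B step was otherwise not tested.

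Of 15115 genes on the array, 7460 had a log2 intensity of at least 4 in at least 4 dogs and were tested. In the shared step limma called 1771 genes at an adjusted p under 0.05, which is 23.7% of those tested. Of these, 930 rose in high grade (12.5%) and 841 fell (11.3%). The T step alone called 2221 genes (29.8%). The B step alone called 0 genes (0%), with a smallest adjusted p of 0.0542 and with 373 genes higher and 578 lower at an unadjusted p under 0.05. Taking the larger p of both steps gave 0 genes after adjustment (0%; smallest adjusted p 0.222), and 415 of the 1771 called genes had the same direction at an unadjusted p under 0.05 in both.

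A call in the shared step can therefore rest on the T step, as for 1181 genes that passed an unadjusted p of 0.05 there and not in the B step, against 166 of the opposite kind. The steps differed from each other for 540 genes (7.24% of those tested). Genes are called shared here when the shared step was called, when both steps had its direction at an unadjusted p under 0.05 and when the steps were not called different, which set aside 11 of the 415. This left 404 shared genes, 198 higher in high grade (2.65%) and 206 lower (2.76%). Because these values chose the genes, their steps below are descriptions. List counts from other fits are given below, and calls over all genes moved in those fits too. With both 3' minus 5' controls as covariates 692 of the 7460 genes rose and 585 fell. With PTCL alone as the high-grade T group 513 rose and 486 fell, and with LBT alone 1023 and 838. In Golden Retrievers alone 791 of 7199 genes rose and 724 fell.

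Across all 7460 genes, 60.3% had the same sign in both steps, and the steps correlated at Pearson's r of 0.296 and Spearman's rho of 0.296, a description over genes that share dogs and arrays and are not independent. Genes that the T step called were chosen on means of T lymphomas alone, although the spread was estimated over all 5 states. Among the 1252 genes called higher in the T step, the median B step was 0.16 and 68.1% had a positive B step, against -0.03 and 46.4% over all genes tested. For the 969 genes called lower, the median B step was -0.23 and 26.9% were positive. Genes higher at an unadjusted p under 0.05 in the B step made up 13.9% of the T step's higher genes, against 5.00% of all genes, and those lower made up 15.9% of its lower genes, against 7.75% of all. The opposite direction was met by 30 of the higher and 13 of the lower genes.

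**Figure D1:**
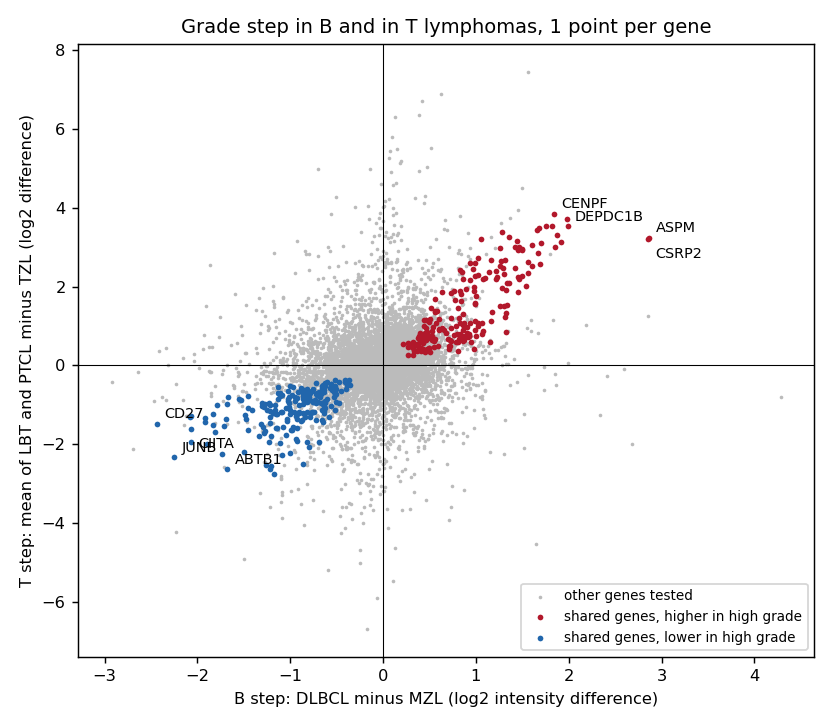
Each point is 1 of the 7460 genes tested, with the B step (DLBCL minus MZL) on the x axis and the T step (mean of LBT and PTCL minus TZL) on the y axis, both as log2 intensity differences. The 198 shared higher genes (red) reach 2.87 by 3.24 for ASPM, the 206 shared lower genes (blue) lie in the opposite corner, and the largest T steps lie near a B step of 0.

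Genes of mitosis led the rise. Of 61 measured genes on a list for mitosis and the spindle, 53 rose and 0 fell in the shared step, against 12.5% and 11.3% of all genes, and 40 were shared genes. Their median step was 1.14 in B and 2.34 in T lymphomas, and 59 of the 61 had a positive B step. The 40 included the mitotic kinases PLK1, AURKA, TTK and NEK2, the kinetochore proteins CENPF, CENPA, NUF2, NDC80 and KNL1, the condensin subunits NCAPG, NCAPH and NCAPG2, and the midbody proteins KIF23, CEP55 and ECT2. The members not called in the shared step were SMC4, INCENP, SKA1, BUB3, KIF20B, CENPN, TACC3 and BORA, of which INCENP and BUB3 were called higher in the T step. With both 3' minus 5' controls as covariates 52 of the 61 were still called, but 7 met the shared rule and the list's median B step was 0.73.

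ASPM, which organises spindle poles, had the largest shared step among genes ranked by the smaller of their steps. It read 2.93, 3.14, 4.59, 4.59 and 5.22 in the MZL dogs and 5.31 to 8.35, with a median of 6.97, in the DLBCL dogs, so the lymphomas of the B step did not overlap. The TZL dogs read 2.22 to 5.61 (median 2.68), the PTCL dogs 5.48, 6.42, 7.39 and 7.83, and the LBT dogs 5.33, 6.24, 6.97 and 7.67, so that 1 PTCL and 1 LBT dog lay under the highest TZL dog. ASPM was 7.29-fold higher in the B step and 9.42-fold in the T step, with a shared step of 3.05 ± 0.41 (SE; adjusted p = 5.99e-06). Below a log2 intensity of 4, where 2 MZL and 6 TZL dogs lay, a difference is less certain than its value shows.

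KIF23, a kinesin that bundles the central spindle, read 4.36, 4.41, 4.84, 6.10 and 6.48 in MZL and 6.25 to 7.92 (median 7.22) in DLBCL. The T lymphomas did not overlap: 2.54 to 5.37 (median 3.34) in TZL against 5.90, 6.77, 7.16 and 8.08 in PTCL and 6.30, 6.59, 7.44 and 7.64 in LBT. Its shared step was 2.52 ± 0.31 (adjusted p = 2.05e-06), 3.77-fold in B and 8.73-fold in T. CENPF, a kinetochore protein, was 3.59-fold higher in DLBCL than in MZL and 14.4-fold higher in the T step, where TZL reached 5.48 at most and no high-grade T dog lay under 6.78. In TZL 5 of 9 dogs lay below 4 for KIF23 and 4 of 9 for CENPF, so the size of these T steps is less certain.

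TOP2A, the topoisomerase that untangles sister chromosomes, was the only higher gene whose grades overlapped in neither step (0.0134% of genes tested), and it is named here after its values were seen. It read 8.03, 8.26, 8.63, 8.89 and 9.23 in MZL and 9.51 to 11.5 (median 9.87) in DLBCL. In TZL it read 4.97 to 9.21 (median 7.71), in PTCL 9.24, 10.3, 10.4 and 12.2, and in LBT 9.86, 10.2, 10.7 and 10.8. The gap between the highest TZL and the lowest PTCL dog was narrow. Its shared step was 2.33 ± 0.37 (adjusted p = 4.91e-05).

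Other mitotic genes among the 12 with the largest smaller step were DLGAP5, TTK, PLK4, CENPA and ECT2. Their B steps ran from 1.69 (ECT2) to 1.98 (DLGAP5) and their T steps from 2.57 (ECT2) to 3.72 (DLGAP5). PLK4, the kinase that starts centriole copying, was 3.38-fold higher in B and 11.6-fold in T. DEPDC1B, a mitotic protein outside the list, was 3.97-fold and 11.6-fold higher. It read 3.12 to 4.21 in MZL and 3.83 to 7.43 in DLBCL, where 1 dog lay inside the MZL range, and it did not overlap in the T step. Below a log2 intensity of 4 lay 6 of 9 TZL and 2 of 5 MZL dogs for PLK4. The same counts were 7 and 3 for DEPDC1B and TTK, 9 and 4 for CENPA, 6 and 3 for ECT2 and 5 and 0 for DLGAP5. The size of these steps is therefore less certain.

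CSRP2, a LIM domain protein, and RBFOX2, a splicing regulator, also belonged to the 12 and are not cell cycle genes. CSRP2 read 3.14, 3.74, 6.14, 6.82 and 6.91 in MZL and 3.63 to 10.3 (median 8.46) in DLBCL, with 1 DLBCL dog low. It read 2.13 to 7.26 (median 5.70) in TZL, 6.82, 7.14, 7.91 and 9.73 in PTCL and 7.93, 8.06, 8.27 and 8.82 in LBT (shared step 3.03 ± 0.59, adjusted p = 0.000458). RBFOX2 was below 4 in 9 of 9 TZL, 5 of 5 MZL, 3 of 4 PTCL and 4 of 10 DLBCL dogs, while LBT read 6.19, 6.50, 8.24 and 8.82, so its T step of 3.01 came chiefly from LBT. LOC487476, a gene named by its locus number alone, was 3.66-fold higher in B and 9.92-fold in T, with 7 of 9 TZL and 2 of 5 MZL dogs below 4. Of the 24 genes named by size, 10 had other probe sets that passed the filter, 12 in all, and all 12 had the direction of the one used.

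**Figure D2:**
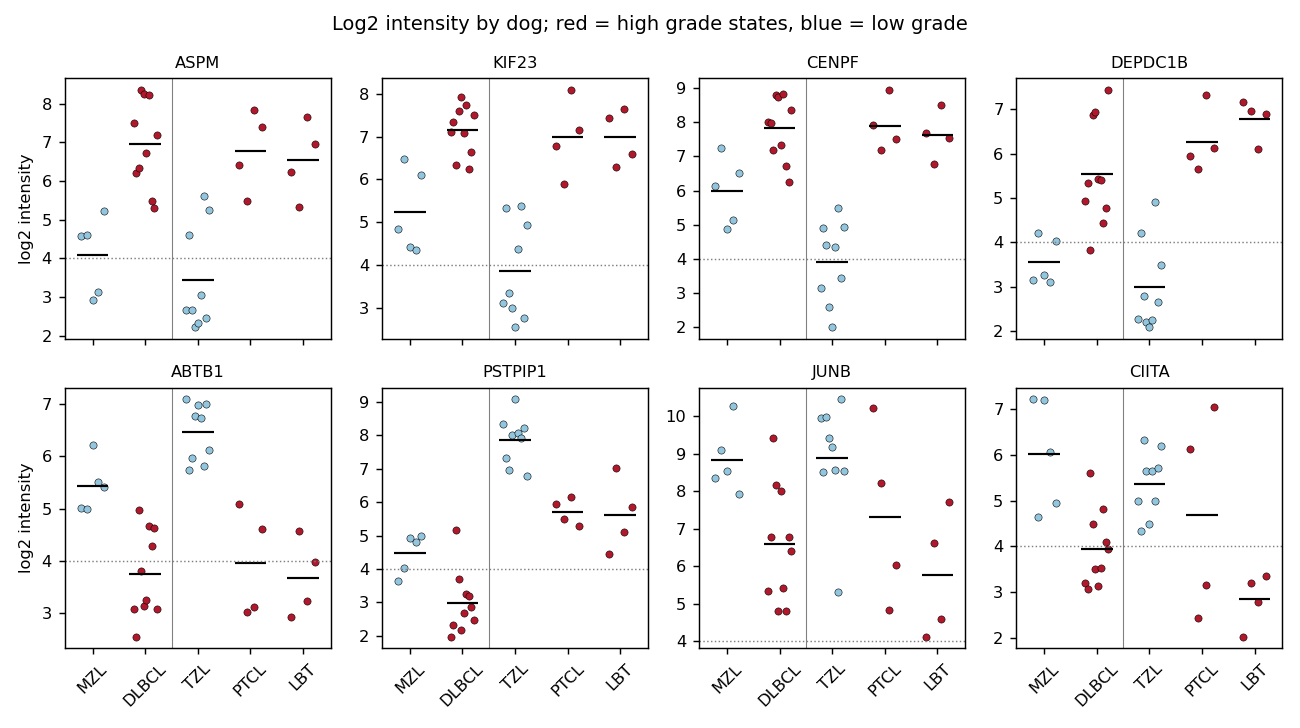
Log2 intensity (y axis) of 4 genes higher and 4 genes lower in high grade, 1 point per dog, by disease state along the x axis, with the mean of each state as a bar and a dotted line at the log2 intensity of 4. High-grade dogs (red) lie mostly above the low-grade dogs (blue) of their lineage for ASPM, KIF23, CENPF and DEPDC1B and mostly below them for ABTB1, PSTPIP1, JUNB and CIITA, with overlapping PTCL dogs for JUNB and CIITA.

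Among cyclins, CDKs and regulators of the cycle, 17 of 33 measured genes rose and 3 fell, and 9 were shared. With the 3' minus 5' controls as covariates 15 rose and 1 was shared, with a median B step of 0.19 in place of 0.16. CCNA2, the cyclin of S phase and mitotic entry, was 3.21-fold higher in B and 11.3-fold in T. CDC6, which loads the replicative helicase, was 3.18-fold and 7.25-fold higher. FOXM1, the transcription factor of the mitotic program, read 3.83, 3.99, 4.72, 4.92 and 5.40 in MZL and 4.69 to 7.27 (median 5.44) in DLBCL, and 2.43 to 4.49 in TZL against 4.88 to 7.99 in PTCL and 5.76 to 6.80 in LBT. FOXM1 values overlapped in the B step and not in the T step (shared step 1.80 ± 0.30, adjusted p = 7.14e-05). In TZL 7 of 9 dogs lay below 4 for FOXM1, 6 of 9 for CDC6 and 3 of 9 for CCNA2.

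The 3 genes of that list that fell were CCND3, CDC25B and CDKN2D. CCND3, a D cyclin expressed in lymphocytes, was 4.97-fold lower in DLBCL than in MZL, with no overlap, and had a T step of 0.01. Its shared call was lost with sex, breed and age or the 3' minus 5' controls as covariates, in Golden Retrievers alone, with lineage and grade as additive terms, and without MZL replicate 3 or 4. For CDC25B the steps were -0.03 in B and -3.27 in T. MYBL2, the gene of B-MYB, had a B step of -0.01 and a T step of 2.69, so it rose in the shared step through T lymphomas.

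DNA replication showed the same direction with a smaller B step. Of 45 measured replication genes 28 rose and 0 fell, with a median step of 0.43 in B and 1.01 in T, and 9 were shared. With the 3' minus 5' controls as covariates 24 still rose, but 0 were shared and the median B step was 0.16. MCM10, PRIM1 (primase), CDC45 (helicase) and POLD3 (polymerase delta) led these, with B steps of 1.22, 0.99, 0.84 and 0.74 and T steps of 2.24, 1.13, 1.63 and 1.19. The helicase subunits MCM2 to MCM7 rose as well, but with B steps between 0.02 (MCM7) and 0.74 (MCM3) against T steps between 1.14 (MCM2) and 2.95 (MCM5), and none met the shared rule. PCNA, the sliding clamp, had a B step of 0.28 and a T step of 1.03.

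Genes of repair and nucleotide supply followed. In DNA repair and recombination 16 of 26 rose and 0 fell, and 7 were shared, among them FANCM, BRCA2, MND1 and FANCD2 with B steps of 1.46, 1.22, 1.31 and 1.17 and T steps of 1.85, 2.41, 1.22 and 2.68. FANCM and FANCD2 lay below 4 in 9 of 9 TZL dogs, so the size of their T steps is less certain. With the 3' minus 5' controls as covariates 14 repair genes rose, 1 was shared and the median B step was 0.18 in place of 0.42. In nucleotide synthesis 12 of 28 rose and 1 fell, and 6 rose with PTCL alone. RRM2, the inducible subunit of ribonucleotide reductase, was 2.56-fold higher in B and 4.25-fold in T, whereas IMPDH1, an enzyme of guanine nucleotide synthesis, was 2.16-fold and 1.72-fold lower. Of 30 chromatin genes 14 rose and 1 fell, but CHAF1A, a histone chaperone, was the only shared gene, and its call was lost when values below the minimum were set to it. The 3' minus 5' controls as covariates left 0 shared and a median B step of 0.06 in place of 0.17.

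EZH2, the methyltransferase of histone H3, was called different between the steps (adjusted p of the difference 0.00349 by limma). It read 7.04 to 8.02 in MZL and 7.31 to 8.85 in DLBCL, ranges that overlap, and 5.73 to 7.24 in TZL against 8.22 to 9.06 in PTCL and 7.74 to 8.96 in LBT. The T step was 4.77-fold and the B step 1.40-fold.

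Energy and protein turnover moved little in size. Of 39 oxidative phosphorylation genes 17 rose and 0 fell (median step 0.22 in B, 0.40 in T), and 8 were shared, 5 of them ATP synthase subunits; ATP5MC1 was 1.55-fold higher in B and 1.94-fold in T. Among 36 proteasome and chaperone genes 17 rose and 0 fell, with a median step of 0.23 in B and 0.30 in T and with PSMD14 and CCT8 leading 5 shared genes. With PTCL alone as the high-grade T group, 10 of the 39 and 9 of the 36 rose, and in Golden Retrievers alone 7 of the 36. Of 40 MYC targets and ribosome biogenesis genes 5 rose (12.5% of the list and of all genes alike), and 5 of 18 genes of cholesterol and fatty acid synthesis rose with 0 shared. The 3' minus 5' controls as covariates moved the median B step of the MYC list from 0.20 to 0.07 and of the lipid list from 0.30 to 0.07, and gave 6 shared oxidative phosphorylation genes in place of 8 and 2 shared proteasome and chaperone genes in place of 5.

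Glycolysis did not go one way, with 2 genes higher (9.1%) and 4 lower (18.2%) of 22, against 12.5% and 11.3% of all genes tested. ALDOC, an aldolase, was its only shared gene, 2.31-fold lower in B and 3.49-fold in T. With the 3' minus 5' controls as covariates 0 glycolysis genes were shared, and the median B step was -0.13 in place of -0.25. MYC itself read 8.41, 8.63, 9.58, 9.95 and 10.7 in MZL, 8.16 to 11.0 (median 9.38) in DLBCL, 7.56 to 9.90 (median 8.50) in TZL, 7.07, 7.38, 8.74 and 9.09 in PTCL and 6.96, 6.98, 7.21 and 8.07 in LBT. These ranges overlap in both steps, and the shared step of -0.47 ± 0.30 was not called (limma, adjusted p = 0.263).

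**Figure D3:**
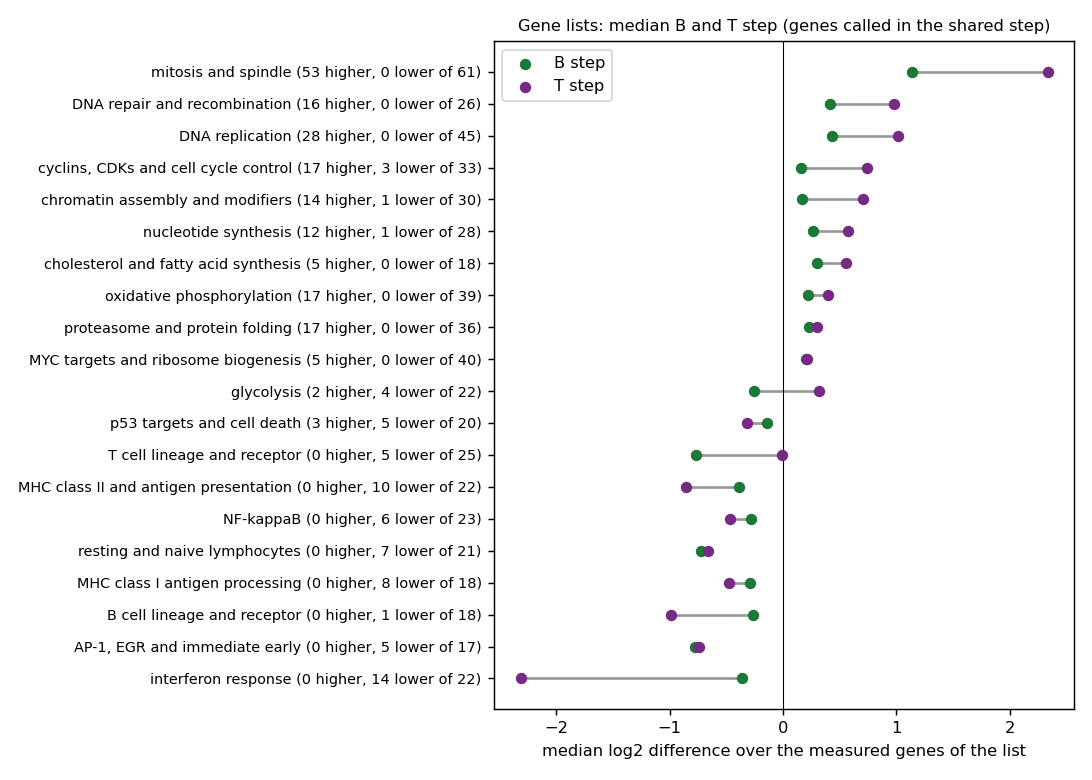
For each of 20 gene lists, the median log2 difference of its measured genes in the B step (green) and the T step (purple), with the number of genes called higher and lower in the shared step beside the list's name. Mitosis has the largest medians (1.14 and 2.34), and interferon response genes have a T step of -2.31 beside a B step of -0.36, which turns to 0.11 without MZL 2 and PTCL 3.

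Genes lower in high grade were more mixed in function. ABTB1, a protein with ankyrin repeats and BTB domains, was the only lower gene whose grades overlapped in neither step (0.0134% of genes tested). It read 5.00, 5.01, 5.41, 5.51 and 6.21 in MZL and 2.56 to 4.98 (median 3.54) in DLBCL, and 5.73 to 7.08 (median 6.73) in TZL against 3.03, 3.13, 4.61 and 5.09 in PTCL and 2.94, 3.23, 3.97 and 4.58 in LBT. The step between the highest DLBCL and the lowest MZL dog was small. ABTB1 was 3.20-fold lower in B and 6.24-fold in T (shared step -2.16 ± 0.26, adjusted p = 1.69e-06).

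AP-1 and other immediate early genes, transcribed within minutes of a stimulus, included JUNB, the lower gene with the largest smaller step. JUNB read 7.92, 8.36, 8.53, 9.11 and 10.3 in MZL and 4.79 to 9.43 (median 6.59) in DLBCL. It read 5.31 to 10.5 (median 9.18) in TZL, where 1 dog was low, 4.84, 6.03, 8.21 and 10.2 in PTCL and 4.12, 4.60, 6.62 and 7.70 in LBT, so the grades overlapped in both steps. JUNB fell by 2.30 on the log2 scale in the shared step (SE 0.56, adjusted p = 0.00349). Of 17 such genes 5 fell and 0 rose, the others being ZFP36, BTG2, DUSP5 and IER2, while FOS, EGR1, JUN and DUSP1 were not called. With the 3' minus 5' controls as covariates 3 genes of the list were called lower and 0 were shared in place of 3. The median B step was then -0.49 in place of -0.78. The list had 3 genes called lower without the 6 arrays that stood apart and 1, without ZFP36 and BTG2, with PTCL alone as the high-grade T group.

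MHC class II genes fell: 10 of 22 genes of class II and antigen presentation were lower and 0 higher, with a median step of -0.39 in B and -0.85 in T. With the 3' minus 5' controls as covariates 9 were lower, 1 was shared in place of 3 and the median B step was -0.16. CIITA, the master activator of class II, read 4.64, 4.95, 6.06, 7.21 and 7.21 in MZL and 3.07 to 5.61 (median 3.74) in DLBCL. In TZL it read 4.34 to 6.33 (median 5.64), in LBT 2.03, 2.79, 3.20 and 3.35, and in PTCL 2.44, 3.16, 6.12 and 7.04. All LBT dogs were below TZL, and 2 of the 4 PTCL dogs were not. CIITA was 4.21-fold lower in B and 3.04-fold in T (shared step -1.84 ± 0.38, adjusted p = 0.000873). DLA-DQA1 and DLA-DQB1, class II chains, were 1.58-fold and 1.90-fold lower in B and 2.60-fold and 3.03-fold lower in T. With PTCL alone as the high-grade T group 2 of the 22 genes were called lower, DLA-DQA1 not among them, and with LBT alone 13 were. Over all 7460 genes tested, 486 were called lower with PTCL alone and 838 with LBT alone.

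For class I and its peptide supply 8 of 18 genes fell and 0 rose, and 5 fell with PTCL alone. With the 3' minus 5' controls as covariates 7 fell, 0 were shared in place of 2 and the median B step was -0.14 in place of -0.30. DLA-79 was 4.20-fold lower in B and 3.86-fold in T, and DLA-64 was 2.00-fold and 2.34-fold lower; canine class I genes are close copies of each other, so probe sets may not separate them. DLA-79 was no longer called with PTCL alone, whose dogs read 8.10, 8.12, 9.74 and 10.3 against 8.98 to 10.3 in TZL. Interferon response genes fell mainly in the T step: 14 of 22 were lower, 5 of the list were called different between steps and IRF9, a subunit of the interferon signalling complex, was the only shared gene (2.14-fold lower in B, 2.29-fold in T). The 14 became 8 with the 3' minus 5' controls as covariates, 8 without MZL 2 and PTCL 3, and 7 with PTCL alone. With those controls 0 genes of the interferon list were shared. The list's median B step turned to 0.11 without MZL 2 and PTCL 3, and was -1.06 in Golden Retrievers alone and -0.75 without the 6 arrays that stood apart, while its median T step in these fits was -2.27, -2.08 and -2.32.

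Genes of resting and naive lymphocytes gave 7 lower and 0 higher of 21, and 4 lower with the 3' minus 5' controls as covariates or with low values set to the minimum, and 3 with PTCL alone. With those controls 1 gene was shared in place of 4, and the median B step was -0.44 in place of -0.73. CD27, a receptor of memory B cells and naive T cells, read 5.09, 6.34, 6.53, 7.55 and 8.04 in MZL and 2.05 to 7.75 (median 3.37) in DLBCL. In T lymphomas it read 9.87 to 10.7 in TZL against 8.66 to 9.52 in PTCL and 7.71 to 9.85 in LBT, with no overlap. The shared step was -1.96 ± 0.47 (adjusted p = 0.00304). TXNIP, an inhibitor of thioredoxin that is high in quiescent cells, was 1.66-fold lower in B and 1.65-fold in T (shared step -0.72 ± 0.16, adjusted p = 0.00181). TSC22D3, a glucocorticoid-induced regulator, and BTG2, an antiproliferative gene, were the other shared genes of this list. BTG2 lost its call with PTCL alone, with sex, breed and age as covariates, with the 3' minus 5' controls, with low values set to the minimum, without MZL 2 and PTCL 3, and without MZL replicate 1 or 4.

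Of 25 genes of the T lineage and its receptor 5 fell and 0 rose, and of 18 of the B lineage 1 fell (CD79A). The shares that fell were 20% and 5.6%, against 11.3% of all genes tested. With the 3' minus 5' controls as covariates 2 of the T lineage and 0 of the B lineage fell, and 0 genes of the T lineage list were shared in place of 2. CD5 and CD40LG, T cell genes, met the shared rule with B steps of -1.92 and -1.23 and T steps of -1.34 and -1.94. CD40LG lay below a log2 intensity of 4 in 10 of 10 DLBCL and 5 of 5 MZL dogs, so its B step is a difference among values under the minimum; with low values set to the minimum its shared step was -0.97, all of it from the T step. The B step of CD5 ran beside a median of -0.68 over 9 measured T cell markers, CD5 among them. CD5 itself was the only one of the 9 that fell in the shared step. The mean log2 intensity of these markers was 5.53 to 7.47 in MZL and 5.55 to 7.38 in DLBCL, ranges that overlap. CD5 lost its call with PTCL alone and in Golden Retrievers alone. PLD4, an endolysosomal nuclease of B and dendritic cells, read 8.75 to 9.54 in MZL and 6.51 to 9.48 in DLBCL, and 2.31 to 8.42 in TZL against 2.06 to 7.65 in PTCL and 2.01 to 5.38 in LBT. Its T step of -2.01 ran beside a median T step of -1.07 over 8 tested B cell markers, 1 of which fell in the shared step; the mean level of B cell markers was 3.20 to 7.54 in TZL, 3.21 to 7.41 in PTCL and 2.44 to 5.49 in LBT. PLD4 lost its call with PTCL alone. What part cells of the other lineage have in these genes was not tested. Of macrophage markers 1 of 17 rose and 0 fell, and of 14 stromal and 5 endothelial markers 0 were called, with respectively 6 and 13 of the markers on the array below 4 in all dogs. Of cytotoxic and NK markers 2 of 14 fell (14.3%, against 11.3% of all genes tested). Of the same 14, 7 were called in the T step, against 29.8% of all genes, and the median T step was -1.72. The mean level of the cytotoxic and NK markers was 3.85 to 6.89 in TZL, 4.03 to 5.14 in PTCL and 3.40 to 4.94 in LBT. Of plasma cell markers 1 of 9 fell (11.1%), with a median T step of -1.31. Of neutrophil and mast cell markers 0 of 8 were called, with a median T step of -1.59 and none of the 8 positive. No erythroid or platelet marker passed the filter. What part these cells have in the lower genes of the T step was not tested.

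The other lower genes named by size belong to no list. PSTPIP1, an actin adaptor of haematopoietic cells, read 3.62, 4.04, 4.80, 4.94 and 4.98 in MZL and 1.98 to 5.15 (median 2.77) in DLBCL, where 9 of 10 dogs were below 4. It read 6.79 to 9.07 (median 8.01) in TZL, 5.27, 5.49, 5.93 and 6.15 in PTCL and 4.46, 5.12, 5.87 and 7.02 in LBT, with 1 LBT dog inside the TZL range (shared step -1.85 ± 0.29, adjusted p = 3.99e-05). FLOT2, a membrane raft protein, and VAMP2, a vesicle fusion protein, were 3.56-fold and 3.52-fold lower in B and 2.84-fold and 3.26-fold lower in T. SPSB3, a substrate receptor of a ubiquitin ligase, was 2.74-fold and 3.12-fold lower. CD52, a lymphocyte surface glycoprotein, was 3.34-fold and 4.73-fold lower, with TZL at 10.7 to 11.7 and PTCL and LBT spread from 5.80 to 11.9. CD52, CD27 and PSTPIP1 had means of 11.0, 10.5 and 7.86 in TZL, against 5.55, 6.71 and 4.48 in MZL and 3.81, 4.28 and 2.98 in DLBCL. Their B steps ran beside the median of -0.68 over T cell markers, as that of CD5 did. What part T cells have in these B steps was not tested. JAK3, the kinase of common gamma chain receptors, was 3.27-fold and 2.89-fold lower, and lost its call in Golden Retrievers alone, with sex, breed and age as covariates and when MZL 2 and PTCL 3, whose sex-linked probe set went against the label, were left out. For each of FLOT2, CD52 and JAK3, 6 of the 10 DLBCL dogs lay below a log2 intensity of 4, so the size of their B steps is less certain.

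Apoptosis and p53 genes did not go one way, with 3 higher and 5 lower of 20 and 0 shared. These shares were 15% and 25%, against 12.5% and 11.3% of all genes tested. BCL2, the survival factor, had a shared step of -0.86 ± 0.36 (limma, adjusted p = 0.0792), CDKN1A one of -1.05 ± 0.45 (adjusted p = 0.0861) and BCL6 one of -0.15 ± 0.46 (adjusted p = 0.841). For NF-kappaB genes the count was 6 lower and 0 higher of 23, with LTA as the only shared gene (shared step -0.86, adjusted p = 0.0256). With PTCL alone 1 of the 23 was called lower. With the 3' minus 5' controls as covariates 4 were called lower and 0 were shared. LTA lost its call with PTCL alone, in Golden Retrievers alone, with array weights, with low values set to the minimum and without MZL replicate 1 or 3.

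Set beside the shared genes, those with the largest difference between steps had almost no B step: CCDC3 had B and T steps of -0.17 and -6.70, AMPH of 0.42 and 6.70, SMOC2 of 0.62 and 6.89, and DPP4 of 0.12 and 6.30. TCEA3 was opposed, at 1.64 and -4.53. The shared genes with the largest adjusted p of the shared step were OTUB1, PARP6 and TNFRSF14, with shared steps of -0.70, -0.81 and -0.62 and adjusted p of 0.0281, 0.0317 and 0.0341. The genes that missed the call of the shared step most narrowly were MDM2, PIGN and PCNT, whose B steps also failed the rule (unadjusted p of 0.934, 0.156 and 0.372), with shared steps of -0.28, 0.53 and 0.64 and adjusted p of 0.0501, 0.0503 and 0.0503.

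Dog by dog, the grades lay apart over the 404 genes with few exceptions. The values of these same dogs chose the genes, so the separation was largely fixed by that choice and is a description. Averaged over the 198 higher genes, MZL dogs read 6.23 to 6.96 (median 6.44) and DLBCL dogs 6.96 to 8.13 (median 7.43), so that 1 MZL dog (MZL 2) and the lowest DLBCL dog crossed by a narrow margin. Averaged over the 206 lower genes, MZL dogs read 7.07 to 7.66 and DLBCL dogs 5.78 to 6.80, and TZL dogs 7.27 to 8.02 against 6.29 to 7.09 in PTCL and 5.97 to 6.91 in LBT. Over the 198 higher genes TZL dogs read 5.51 to 6.73, PTCL dogs 7.05 to 7.87 and LBT dogs 7.26 to 7.77. DLBCL 3 stood nearest to MZL, with 142 of the 198 higher genes above and 159 of the 206 lower genes below the MZL mean. LBT and PTCL each had means on the high-grade side of TZL for all 198 higher and all 206 lower genes, a direction that the rule on the T step favours.

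The 2 BL dogs and the NBNT dog took no part in the fit. Both BL dogs, which the labels class with B lymphomas, lay above the MZL mean for 188 of the 198 higher genes (94.9%, against 38.6% of all genes tested) and below it for 183 of the 206 lower genes (88.8%, against 32.2%). Their median difference from MZL was 1.24 for the higher and -0.98 for the lower genes. These shares use the MZL dogs that also chose the genes. Over genes called by the T step alone, whose choice used no MZL mean, both BL dogs lay above the MZL mean for 62.0% of the higher genes, and below it for 50.8% of the lower genes, against 38.6% and 32.2% of all genes tested. The single low-grade NBNT dog lay nearer to the low-grade than the high-grade mean for 186 of the 198 and 196 of the 206 genes. The dogs behind these means also chose the genes. The same share over all genes tested was not computed, so this nearness is not shown to be particular to the shared genes.

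**Figure D4:**
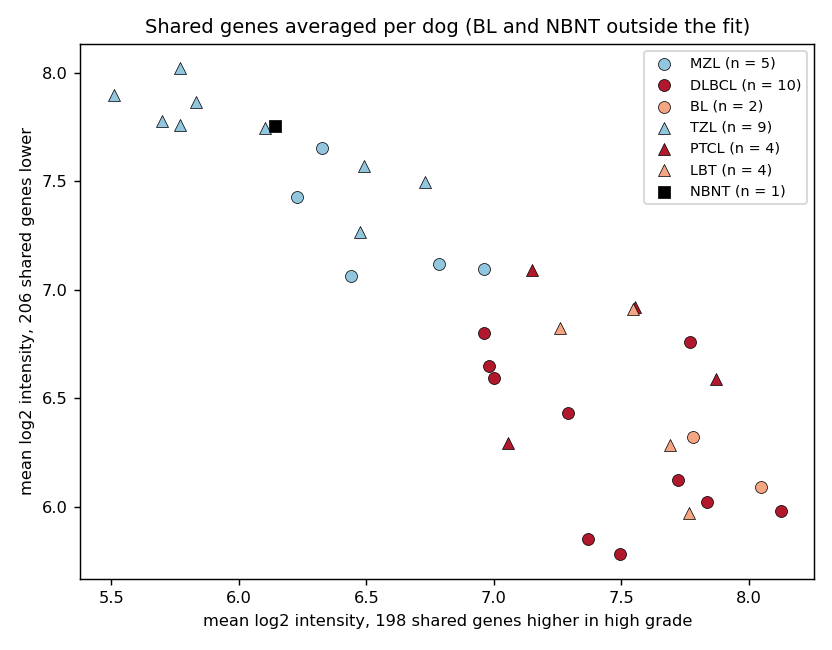
Each point is 1 dog, with its mean log2 intensity over the 198 shared higher genes on the x axis and over the 206 shared lower genes on the y axis; circles are B, triangles T and the square the NBNT dog. Low-grade dogs lie at the upper left, and 1 MZL dog at 6.96 on the x axis reaches the lowest DLBCL dogs. Except for BL and NBNT, the dogs shown are those whose values chose the genes.

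The number of shared genes depended on the processing. With arrays centred on their median the rule gave 323 higher and 146 lower genes in place of 198 and 206. With both 3' minus 5' controls as covariates it gave 62 and 70. All 404 genes kept both signs in that fit, which the rule favours because it chose them by direction in these same dogs. In the shared step 182 of the 198 and 180 of the 206 were still called. The median B step of the same genes was 0.55 and -0.51 in place of 0.85 and -0.88. Without the 6 arrays that stood apart it gave 223 higher and 301 lower. With MZL replicate 4 left out, 113 genes were shared higher.

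**Figure D5:**
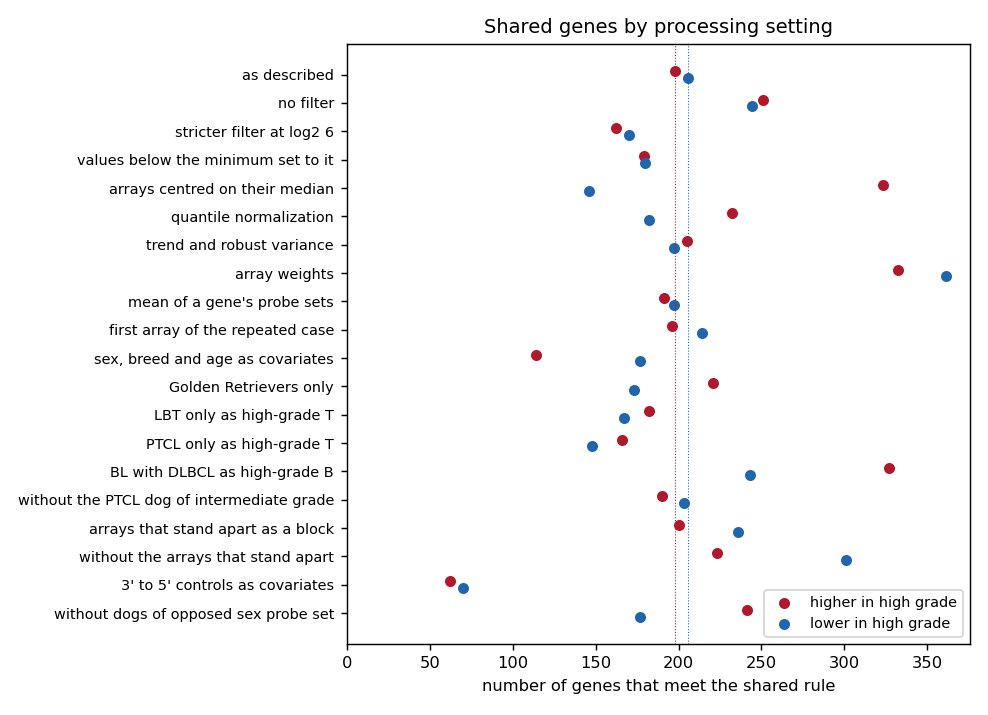
Number of genes (x axis) that met the shared rule under each processing setting (y axis), higher in high grade in red and lower in blue, with dotted lines at the 198 and 206 of the analysis as described. The counts fall to 62 and 70 with the 3' minus 5' controls as covariates and rise to 332 and 361 with array weights.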

How the data were processed

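Intensities deposited by the authors, on a linear scale and made with GCRMA per the submitters' processing notes, were floored at 1 and log2 transformed. The array's build, coordinates and annotation release are not given in the sources used here. Probe sets were named from the platform annotation (29254 of 43035 carried 1 symbol), and a gene took its probe set with the highest mean. Genes of log2 4 or more in at least 4 dogs were fitted by disease state with limma 3.58.1 in R 4.3.3 (lmFit, eBayes), two-sided, with Benjamini-Hochberg adjustment over all genes tested and calls under 0.05. The precision is set by the number of arrays, 4 to 10 dogs a state. Control probe sets were compared by exact permutation. The fit was tested on simulated data. Named genes were the 12 shared genes in each direction with the largest smaller step, up to 4 per list, 13 chosen genes (9 tested), 5 whose steps differ most, and the 3 shared and 3 uncalled genes nearest to the call of the shared step. Members and lists were chosen with earlier results of these data known. Alternatives changed the filter, the normalization, the probe set summary, weights, covariates, the dogs and the groups; genes were given no coordinates, and promoter motifs were not analysed here.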

Additional observations from a re-analysis of the deposited data

Results flagged for a closer look

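Among 165 sets of dogs of 1 disease state and 1 named gene, 10 held a dog whose distance to its nearest neighbour exceeded Dixon's critical share of the whole range, a threshold set to pass about 1 in 20 groups by chance. The shares were 0.541 for CSRP2 (DLBCL 10 low), 0.626 for JUNB (TZL 7 low), 0.576 for PLD4 (DLBCL 4 high), 0.509 for PLD4 (TZL 5 low), 0.537 for FLOT2 (DLBCL 4 high), 0.613 for CD27 (TZL 9 low), 0.795 for TXNIP (MZL 1 low), 0.573 for TXNIP (TZL 5 high), 0.928 for EZH2 (LBT 2 low) and 0.555 for CCND3 (TZL 2 low). DLBCL 4, TZL 2 and TZL 7 are among the 6 arrays with a high actin 3' control.

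Of the genes named by rule, 7 had steps that limma called different, a count that the rules of naming largely fixed. CCDC3, AMPH, SMOC2, DPP4 and TCEA3 were named for their difference, and shared genes could not differ. Genes named only as list members, such as MYBL2 and CDC25B, were not counted. The T step minus the B step was 1.77 for EZH2, 2.32 for CCND3, -6.52 for CCDC3, 6.28 for AMPH, 6.26 for SMOC2, 6.17 for DPP4 and -6.17 for TCEA3.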

How the results depend on the processing

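The shared step called 1425 to 1949 genes when each dog was left out in turn, 3898 of all probe sets, 999 with PTCL alone and 594 at 2-fold or more. The shared rule gave 113 (without MZL replicate 4) to 271 higher and 145 to 241 lower genes over the dogs left out. Higher genes numbered 323 with arrays centred, 332 with array weights, 432 over probe sets, 114 with sex, breed and age, 327 with BL added and 62 with the 3' to 5' controls; lower genes numbered 361, 416 and 70 with weights, probe sets and those controls. The larger p of both steps called 11 genes with array weights and 0 to 1 (without LBT replicate 2) over the dogs left out. The B step called 16 genes with the stricter filter, 35 with low values set to the minimum, 4 with arrays centred, 365 with array weights, 17 with the mean of probe sets, 7 over probe sets, 28 with the first array of the repeated case, 6 in Golden Retrievers, 76 with BL, 12 without the arrays that stand apart and 14 without MZL 2 and PTCL 3, and 0 to 64 over the dogs left out, above 0 without DLBCL 3, 4, 9, 10 or 11, MZL 1, 2 or 5, TZL 2 or 7, PTCL 3 or LBT 2. The steps differed for 1285 probe sets, 340 genes with sex, breed and age, 144 with PTCL alone and 292 without the arrays that stand apart. The T step called 5171 probe sets and 986 genes with PTCL alone. The actin 3' to 5' gap of the T step was 0.805 without those arrays. The causes were not tested. None of the 74 named genes followed over the settings reversed its direction with a call. TOP2A, the genes nearest to the call and genes named only as list members, such as MYBL2 and CDC25B, were not followed. No paired analysis was possible because each dog has 1 disease state and no label pairs dogs of different states. Signal near background limits genes below log2 4, and 5 MZL dogs limit the B step.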
